A study of Homo sapiens with 4 samples.

Results

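Long noncoding RNAs that are abundant in dividing cells or that have been linked to DNA damage were examined in OVCAR3 cells treated with etoposide. The members were 10 genes, MALAT1, NEAT1, NORAD, TUG1, PVT1, DANCR, KCNQ1OT1, H19, MEG3 and OIP5-AS1, taken by the gene names that the deposited tables carry, out of 60605 genes in all. RNA was sequenced from 2 libraries of cells exposed to 1.7 µM etoposide for 24 h and from 2 libraries of cells that received the solvent DMSO. OVCAR3 is an established line of high-grade serous ovarian carcinoma, and the study's methods for etoposide treatment place 16 h in nocodazole (100 ng/mL), which blocks mitosis, and 3 h of release before the drug or solvent in both groups. The labels call the libraries of a group biological replicates but do not say whether they came from separate cultures, so p-values measure the spread between these libraries. In bulk RNA, fewer cells that make an RNA and less of that RNA in each cell cannot be told apart.

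Long noncoding RNAs act as RNA molecules rather than through a protein. MALAT1 and NEAT1 lie next to each other and stay in the nucleus, MALAT1 at nuclear speckles, where splicing factors gather, and NEAT1 as the scaffold of paraspeckles. NORAD is mostly cytoplasmic, is named for its activation by DNA damage and holds Pumilio proteins, which bind and destabilize mRNA. H19, KCNQ1OT1 and MEG3 belong to imprinted regions, where only the copy from one parent is transcribed. Etoposide traps topoisomerase II on cut DNA and so causes double-strand breaks.

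The short elements that set NORAD apart in sequence, and the 3′ ends that set MALAT1 and NEAT1 apart, are shown first, since these RNAs have the highest or the most variable levels described next. The Pumilio element TGTANATA was searched on the transcript strand of the most abundant transcript of each gene, read from GRCh38 (hg38). The NORAD transcript of 5401 bases held 15 elements, or 2.78 per kb, and 1 copy of the reverse complement. Among 3870 main transcripts of 4000 to 7000 bases, 44.7% held at least 1 element, the median was 0, and 3 transcripts, NORAD included, held 15 or more. Of the 15 elements in NORAD, 10 read TGTATATA, 4 TGTAAATA and 1 TGTACATA, and 3 pairs of neighbouring elements started 9 bases apart. One element of each kind, and a second of the most frequent kind, are given with flanks, the element in capitals. All lie in the single exon of NORAD.
NORAD, chr20:36050182-36050211, minus strand: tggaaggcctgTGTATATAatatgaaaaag
NORAD, chr20:36049803-36049832, minus strand: cctcactactgTGTATATAgttgacaatgc
NORAD, chr20:36049702-36049731, minus strand: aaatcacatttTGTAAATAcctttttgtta
NORAD, chr20:36049492-36049521, minus strand: tgtgtatatagTGTACATAaaggacagacg

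The other members held few of these elements. The long NEAT1 transcript held 6 in 22743 bases, KCNQ1OT1 9 in 91667 bases and OIP5-AS1 1 in 8829 bases, while 0 were found in the main transcripts of MALAT1, TUG1, PVT1, DANCR and H19. A match is a description of the letters and not of binding.

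**Figure D1:**
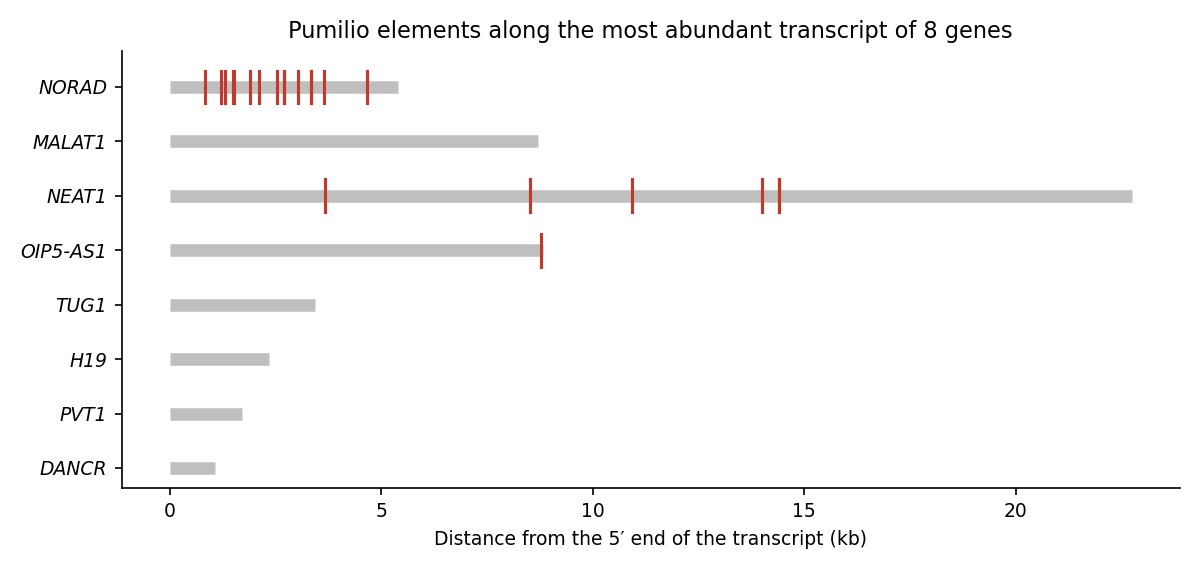
Positions of the Pumilio element TGTANATA (red marks) along the most abundant transcript of 8 genes (grey bars), with the distance from the 5′ end in kb on the horizontal axis. NORAD carries 15 marks between bases 819 and 4657, and NEAT1 carries 6 along a transcript of 22743 bases, 2 of which stand too close to be seen apart.

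MALAT1 and the long NEAT1 transcript lack a common poly(A) tail. Their 3′ ends are cut by RNase P and are shielded by a triple helix, in which U-rich stretches clamp an A-rich tract. The longest run of bases shared by the last 500 bases of MALAT1 and the last 100 bases of NEAT1 was 16 bases long and U-rich, and the next longest was 11 bases long and A-rich. In the lines given here the shared U-rich run, or the whole A-rich tract, is in capitals.
MALAT1 U-rich, chr11:65506058-65506087, plus strand: ttgttttCTCAGGTTTTGCTTTTtggcctt
NEAT1 U-rich, chr11:65445477-65445506, plus strand: ggccgcaCTCAGGTTTTGCTTTTcaccttc
MALAT1 A-rich, chr11:65506087-65506116, plus strand: ttttctagcttAAAAAAAAAAAAAGCAAAA
NEAT1 A-rich, chr11:65445511-65445540, plus strand: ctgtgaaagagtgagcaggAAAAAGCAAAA

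The runs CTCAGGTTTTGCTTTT and AAAAAGCAAAA were then searched in the last 500 bases of 22185 main transcripts, 1 for each gene tested. The first stood on the transcript strand in 2 of these ends, those of MALAT1 and NEAT1 (0.00902%), and its reverse complement in 0%. The second stood in 0.198% and its reverse complement in 0.234%. The runs overlap in sequence, since 10 bases of the second lie in the reverse complement of the first. They were chosen from these RNAs, so the counts describe them and test nothing. In NEAT1 the A-rich tract closes the annotated transcript, whereas in MALAT1 it starts 371 bases before the last annotated base.

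The libraries are described before the members because 1 of them stood apart. The deposited values imply 47687126 and 58513480 mapped read pairs in the etoposide libraries and 64473397 and 66500749 in the DMSO libraries. Across genes, the log2 difference of replicate 2 over replicate 1 had Spearman correlations of 0.017 with transcript length and −0.016 with GC content in the etoposide group, against 0.32 and −0.34 in the DMSO group. The log2 fold change of etoposide over DMSO itself had correlations of 0.19 with length and −0.29 with GC content. Genes are not independent replicates, so these values carry no p. DMSO replicate 1 lay outside the range of the other 3 libraries for 7 of the 9 members tested, where it did so for 65.1% of all genes tested. Any library is the highest or lowest of the 4 for many genes, and this share was not computed for the other 3. The correlations do not say which DMSO library departed. Across genes, the standard deviation of the replicate difference was 0.42 in the DMSO group and 0.39 in the etoposide group. Values without DMSO replicate 1 are given beside those of each member tested, and of the other named genes of the lists whose fold change it moved by over 1.5 times. The 10 markers of serous ovarian carcinoma were all detected, from 9.04 FPKM (MECOM, lowest library) to 1266 FPKM (KRT8, highest library). Of the fibroblast, leukocyte and endothelial markers, COL3A1, DCN, PDGFRA, PTPRC, CD3E, PECAM1 and CDH5 stayed under 0.09 FPKM in every library. The others were detected, the highest being the fibroblast markers COL1A1 (up to 6.11 FPKM) and COL1A2 (up to 2.01 FPKM), the endothelial markers KDR (3.77 to 5.01 FPKM) and VWF (up to 0.915 FPKM) and the leukocyte marker CD14 (up to 1.02 FPKM). The serous markers had a median log2 fold change of −0.24, with 9 of 10 below 0, and the part of this in the values of the members was not tested. Estimated read pairs per library ran from 80 for H19 to 302627 for MALAT1.

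Levels are given as FPKM, a fragment number corrected for transcript length and for the depth of the library, summed over the annotated transcripts of a gene. Expression of the members spanned a wide range. By the mean of the 4 libraries, MALAT1 ranked 79th among nuclear genes and 3rd among genes that GENCODE 44 lists as lncRNA, NORAD ranked 9th and NEAT1 15th among lncRNAs, and DANCR ranked 23rd and OIP5-AS1 31st. TUG1 stood at 729th among nuclear genes, and GENCODE 44 lists it as protein coding, because of a small reading frame. PVT1 ranked 180th among lncRNAs. H19 and KCNQ1OT1 had a mean under 1 FPKM, and all 50 transcripts of MEG3 were listed at 0 in every library.

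**Figure D2:**
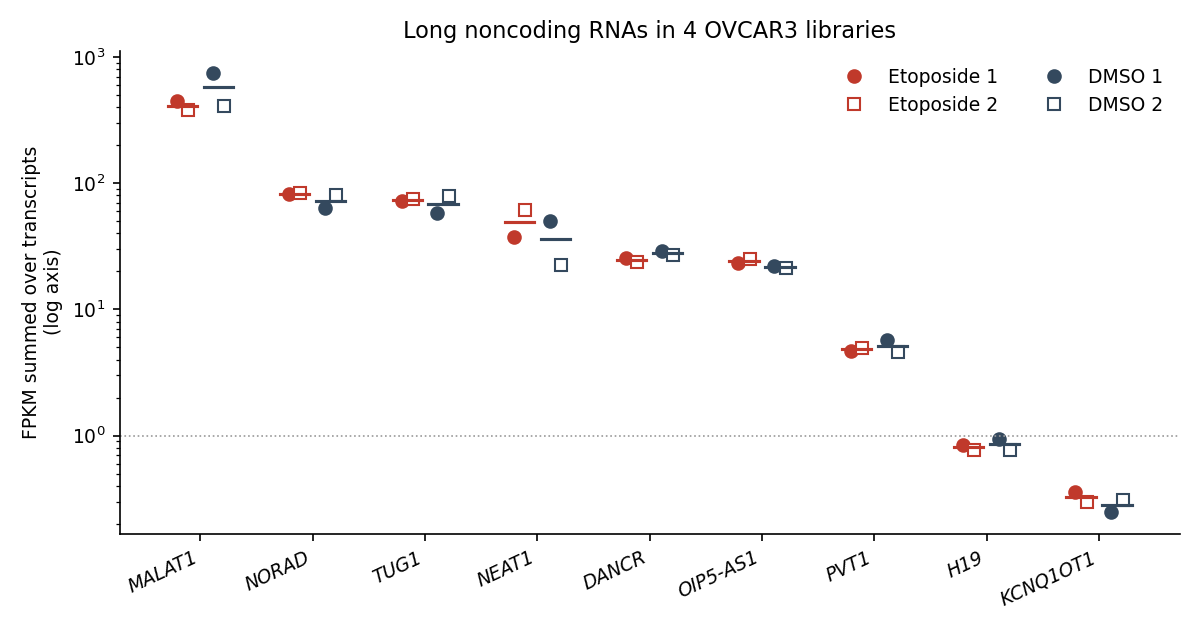
FPKM summed over transcripts (vertical axis, log scale) for 9 members in each etoposide library (red) and each DMSO library (blue), with the mean of each pair as a bar and 1 FPKM as a dotted line. MALAT1 stands highest, with DMSO 1 at 751 FPKM above the other 3 libraries, NEAT1 shows the widest spread within both groups, and H19 and KCNQ1OT1 lie under 1 FPKM. MEG3 is listed at 0 and is not drawn.

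None of the 9 members that could be tested changed with etoposide at an adjusted p under 0.05 (limma on log2(FPKM + 0.1), Benjamini-Hochberg over 22185 genes). Their adjusted p-values ran from 0.445 to 0.899, and 0 had an unadjusted p under 0.05. Of all genes tested, 0% passed at an adjusted p under 0.05, and at an unadjusted p under 0.05 7.06% were higher and 4.85% were lower after etoposide. Fold changes were above 0 for 5 members and below 0 for 4, with a median log2 fold change of 0.12, against 0.036 over all genes tested, of which 56.2% were above 0, and 0.013 over the 4147 lncRNA genes tested. The etoposide libraries lay apart from the DMSO libraries for 3 of the 9 members, NORAD and OIP5-AS1 on the higher side and DANCR on the lower side. Such separation was seen for 47.9% of all genes tested, 28.9% higher and 19% lower. Each library was also corrected for the length and GC content of transcripts by a loess curve, and after this loess correction the median of the members was −0.057, with 3 of 9 above 0, and that of all genes −0.0043. Without DMSO replicate 1 the median was 0.053, with 7 of 9 above 0. Base coverage, a measure described with MALAT1, separated the groups for 5 members, 4 higher and 1 lower, and for 49.7% of all genes (30.2% higher and 19.5% lower).

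**Figure D3:**
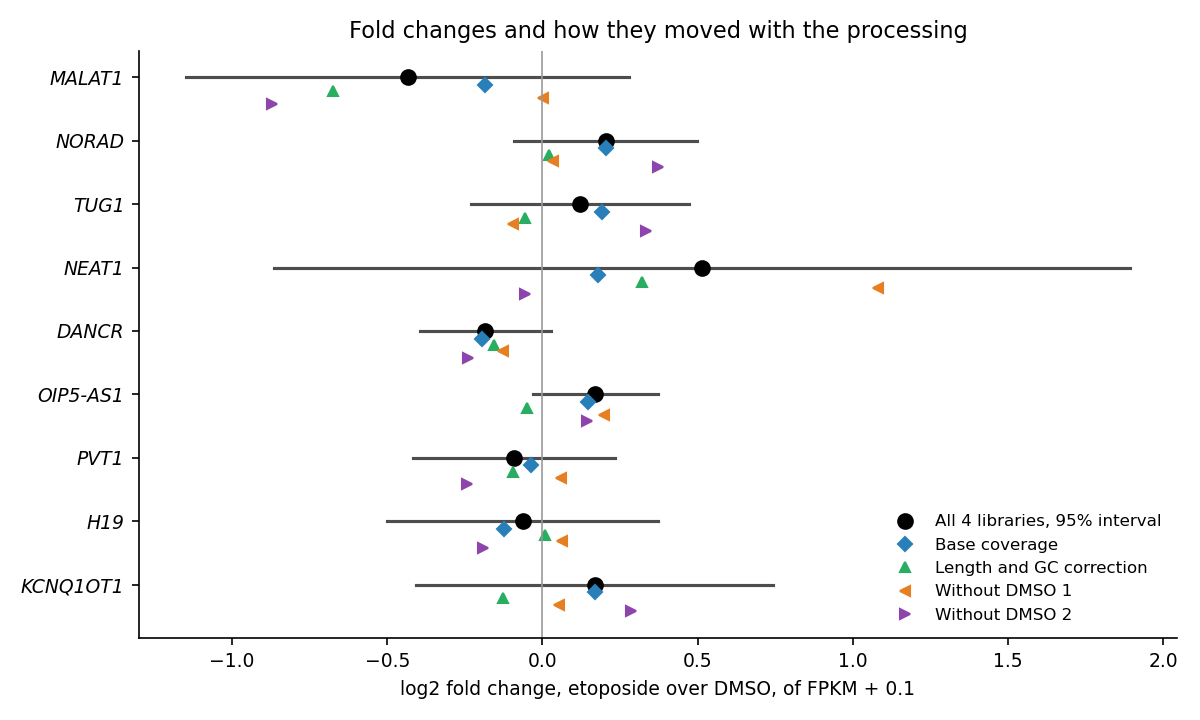
Log2 fold change of etoposide over DMSO (horizontal axis) for 9 members, with its 95% interval (black), and the same value from base coverage, after the loess correction for length and GC content, without DMSO 1 and without DMSO 2 (coloured markers). All 9 black intervals include 0, and the markers without DMSO 1 and without DMSO 2 lie on both sides of 0 for NEAT1, TUG1, PVT1 and H19, while for MALAT1 they stand at 0.0021 and −0.87.

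MALAT1 (ENSG00000251562, chromosome 11, 65497688 to 65506516, plus strand) had 446 and 378 FPKM in the etoposide libraries, against 751 and 410 FPKM in the DMSO libraries. The value of 751 belonged to DMSO replicate 1, and the other DMSO library lay between the etoposide libraries. This gave a log2 fold change of −0.43 (standard error 0.28, 95% interval −1.15 to 0.28, limma adjusted p = 0.539). It was 0.0021 without DMSO replicate 1 and −0.87 without DMSO replicate 2 (limma adjusted p = 0.0374), in which case DMSO replicate 1 was the only library of its group. Such a fit takes the spread of the lone library from the other group.

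The excess in DMSO replicate 1 stood in a single annotated transcript. The transcript of 8708 bases (ENST00000534336), which covers MALAT1 in 1 exon, had 443 and 375 FPKM after etoposide, against 206 and 397 FPKM with DMSO. A spliced transcript of 5340 bases (ENST00000619449) was given 0.287 FPKM and 0 in the etoposide libraries, against 542 FPKM and 0 in the DMSO libraries. In DMSO replicate 1 its coverage on the FPKM scale was 586 in exon 3, of 4937 bases, which lies inside the longer transcript. In exons 1, 2 and 4 it was 0.0693, 0.662 and 21.3. Whether a spliced RNA was present was not tested. Of the 5340 bases, 5266 also belong to the longer transcript, so that the fragments were divided between overlapping models. Base coverage, the summed coverage of all transcripts averaged over every exonic base of the gene and put on the FPKM scale, adds these parts together again. By base coverage MALAT1 had 437 and 371 after etoposide, against 532 and 393 with DMSO. DMSO replicate 1 was still the highest library, but the ratio of the highest to the lowest library was 1.43 instead of 1.99, and the log2 fold change was −0.18 (standard error 0.17, limma adjusted p = 0.647).

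NEAT1 (ENSG00000245532, chromosome 11, 65422774 to 65445540, plus strand) had 37.4 and 61.7 FPKM after etoposide, against 49.9 and 22.6 FPKM with DMSO. The groups overlapped, and the spread within each group was as wide as the difference between them. The log2 fold change was 0.51 (standard error 0.49, 95% interval −0.86 to 1.89, limma adjusted p = 0.683), and it was 1.08 without DMSO replicate 1 and −0.055 without DMSO replicate 2. NEAT1 is made as a long transcript, on which paraspeckles are built, and as shorter transcripts that share its 5′ part, end at an earlier poly(A) site and do not form paraspeckles by themselves.

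The long and the short NEAT1 transcripts varied to a different extent across the libraries. The long transcript (ENST00000501122, 22743 bases) had 23.4 and 19.3 FPKM after etoposide, against 20.1 and 20.3 FPKM with DMSO. Its highest and lowest libraries, both treated with etoposide, differed by a ratio of 1.21, with a log2 fold change of 0.07 (standard error 0.14, limma adjusted p = 0.933 over 71340 transcripts). The short transcript of 3441 bases (ENST00000499732) had 2.29 and 25.2 FPKM after etoposide, against 14.9 and 0.732 FPKM with DMSO. The transcript of 3301 bases (ENST00000670617) had 5.71 and 13.7 FPKM after etoposide, against 12.1 and 0.837 FPKM with DMSO. Both were high in etoposide replicate 2 and DMSO replicate 1 and low in the other 2 libraries, whatever the treatment.

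All transcripts other than the long one summed to 14.0 and 42.4 FPKM after etoposide, against 29.8 and 2.28 FPKM with DMSO. The ratio of this sum to the long transcript was 0.598 and 2.20 after etoposide, against 1.48 and 0.112 with DMSO. Of the 3441 bases of ENST00000499732, 3417 lie inside the long transcript, and all 3301 bases of ENST00000670617 do, so that the split rests on how coverage of the shared 5′ part was divided. By base coverage NEAT1 had 25.4 and 25.6 after etoposide, against 24.5 and 20.6 with DMSO, and the ratio of the highest to the lowest library was 1.24, against 2.73 with summed FPKM. The etoposide libraries then lay above both DMSO libraries, with a log2 fold change of 0.18 (standard error 0.098, limma adjusted p = 0.475). After the loess correction the base coverage gave −0.0063. The libraries were prepared with an mRNA kit, and the long NEAT1 transcript and MALAT1 lack a common poly(A) tail. The part this plays in their levels was not tested.

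**Figure D4:**
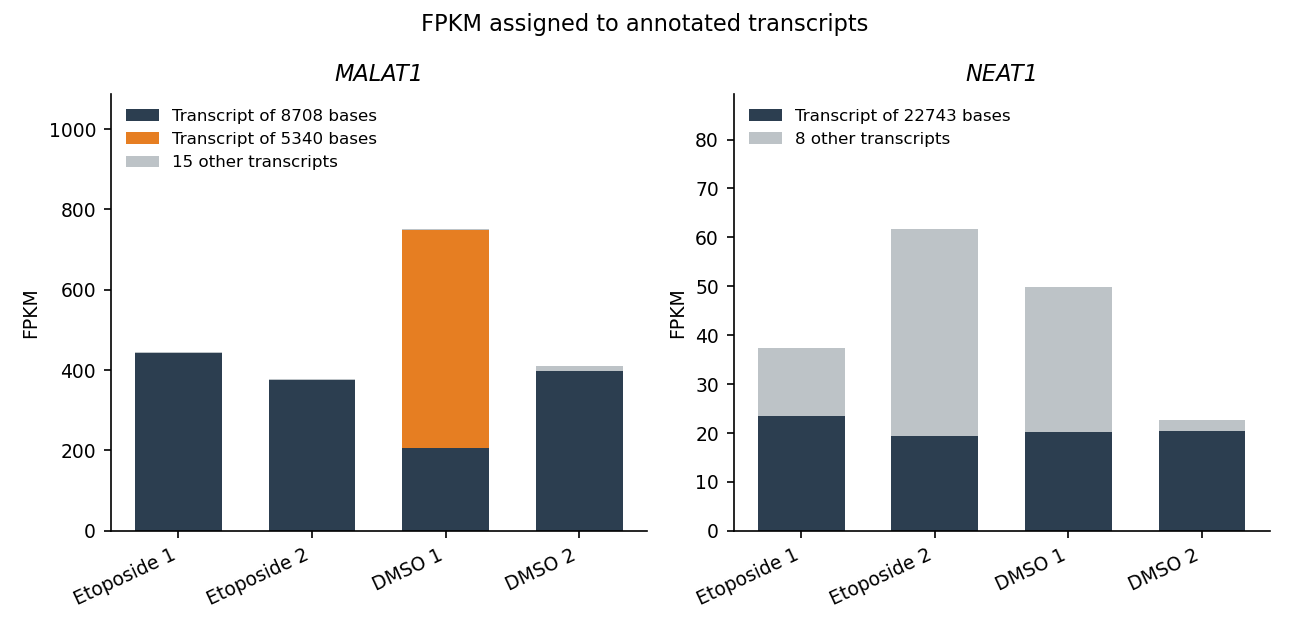
FPKM (vertical axis, from 0) that was assigned to annotated transcripts of MALAT1 (left) and NEAT1 (right) in each etoposide and DMSO library, stacked by transcript. The 5340-base MALAT1 transcript reaches 542 FPKM in DMSO 1 and cannot be seen in the other libraries, while the long NEAT1 transcript stays between 19.3 and 23.4 FPKM and the 8 shorter NEAT1 transcripts vary from 2.28 to 42.4 FPKM.

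Genes whose values followed those of MALAT1 or NEAT1 were looked up by the Euclidean distance of the log2 values, centred per gene, over the 4 libraries among 13558 other genes with a mean of at least 1 FPKM. For MALAT1 the nearest were the microRNA hairpin gene MIR6859-1 (distance 0.17), UPK3BL2 (0.19) and the pseudogene ENSG00000253945 (0.21). UPK3BL2 had 3.03 and 2.90 FPKM after etoposide, against 4.93 and 2.98 FPKM with DMSO. For NEAT1 the nearest were PRORP (0.21), the nuclease of mitochondrial RNase P, SKP1 (0.28), a subunit of SCF ubiquitin ligases, and the pseudogene ENSG00000278009 (0.30). SKP1 had 32.7 and 50.4 FPKM after etoposide, against 41.5 and 23.7 FPKM with DMSO. With 4 libraries this likeness is a description.

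Genes for the proteins of the bodies that MALAT1 and NEAT1 mark did not pass the test. Of 15 paraspeckle proteins, all tested, 10 had a log2 fold change above 0, with a median of 0.065, and 0 passed at an adjusted p under 0.05. The smallest p-values belonged to HNRNPH3, an RNA-binding protein, and to CPSF7, CPSF6 and NUDT21, subunits of a cleavage factor that acts at poly(A) sites. HNRNPH3 had 114 and 112 FPKM after etoposide, against 99.7 and 98.8 FPKM with DMSO (log2 fold change 0.19, limma adjusted p = 0.392). For NUDT21 the values were 28.3 and 28.3 FPKM after etoposide, against 21.6 and 25.9 FPKM with DMSO (0.26, limma adjusted p = 0.419). The log2 fold change of NUDT21 was 0.13 without DMSO replicate 1 and 0.39 without DMSO replicate 2 (limma adjusted p = 0.0346). CPSF7 had a log2 fold change of 0.18 and CPSF6 of 0.21, and the value of CPSF6 was −0.015 after the loess correction. The median of the list after that correction was 0.011.

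Of 17 nuclear speckle proteins, 11 had a log2 fold change above 0, with a median of 0.029, or 0.061 without DMSO replicate 1. SON, which together with SRRM2 forms the core of speckles, had 77.3 and 76.0 FPKM after etoposide, against 57.9 and 69.6 FPKM with DMSO (log2 fold change 0.27, limma adjusted p = 0.401). This was 0.14 without DMSO replicate 1 and 0.40 without DMSO replicate 2 (limma adjusted p = 0.0336). SRSF11 had 0.15, PNISR 0.21 and RBM25 0.17, and without DMSO replicate 1 PNISR had 0.10 and RBM25 0.088. With all 4 libraries none of the 17 passed. RNase P makes the 3′ ends of MALAT1 and the long NEAT1 transcript, and RNase Z trims the small tRNA-like RNA that this cut releases from MALAT1. Of 11 genes for RNase P subunits and RNase Z, 6 had a log2 fold change above 0, with a median of 0.016, which was 0.12 without DMSO replicate 1 and −0.085 without DMSO replicate 2. FRMD8, the gene next to NEAT1, had 15.8 and 16.2 FPKM after etoposide, against 14.4 and 12.9 FPKM with DMSO (0.23, limma adjusted p = 0.415), and the fold change was 0.15 without DMSO replicate 2. LINC02736, which lies between MALAT1 and NEAT1, stayed between 0.0860 and 0.227 FPKM. Short genes inside both that GENCODE lists as miscellaneous RNA, ENSG00000278217 in MALAT1 and ENSG00000278050 in NEAT1, were listed at 0.493 to 4.08 FPKM and at 0.645 to 1.48 FPKM, and reads of these cannot be told apart from those of the host.

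NORAD (ENSG00000260032, chromosome 20, 36045618 to 36051018, minus strand) is annotated with a single transcript of 1 exon, so no division between isoforms enters its value. It had 81.8 and 83.0 FPKM after etoposide, against 63.6 and 80.5 FPKM with DMSO. Both etoposide libraries lay above both DMSO libraries, but DMSO replicate 2 stood closer to them than to DMSO replicate 1. Its log2 fold change was 0.20 (standard error 0.12, 95% interval −0.09 to 0.50, limma adjusted p = 0.500). It was 0.034 without DMSO replicate 1, 0.37 without DMSO replicate 2 (limma adjusted p = 0.0339) and 0.021 after the loess correction.

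Of 8 proteins known to bind NORAD or its complex, 5 had a log2 fold change above 0, with a median of 0.037, and 0 passed. PUM2, a Pumilio protein, had 31.8 and 32.9 FPKM after etoposide, against 23.7 and 31.7 FPKM with DMSO, where DMSO replicate 1 was lowest, as it was for NORAD. Its log2 fold change of 0.24 (limma adjusted p = 0.502) was 0.030 without DMSO replicate 1 and 0.45 without DMSO replicate 2 (limma adjusted p = 0.0339). CDC5L, a splicing protein, had 7.78 and 7.85 FPKM after etoposide, against 6.11 and 7.12 FPKM with DMSO (0.24, limma adjusted p = 0.439), which was 0.13 without DMSO replicate 1. The next genes on the chromosome were EPB41L1, with a log2 fold change of 0.12, and CNBD2, with 0.065.

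TUG1 (ENSG00000253352, chromosome 22, 30969245 to 30979395, plus strand), first found as a gene raised by taurine in the mouse retina, had 72.5 and 75.2 FPKM after etoposide, against 58.5 and 78.8 FPKM with DMSO. By summed FPKM the groups overlapped, since DMSO replicate 1 was the lowest and DMSO replicate 2 the highest library. By base coverage TUG1 had 38.7 and 38.9 after etoposide, against 29.8 and 38.6 with DMSO, so the groups lay narrowly apart. That log2 fold change was 0.19 (standard error 0.13, limma adjusted p = 0.551), or 0.0042 without DMSO replicate 1. The log2 fold change of summed FPKM was 0.12 (standard error 0.14, 95% interval −0.23 to 0.47, limma adjusted p = 0.736). It was −0.094 without DMSO replicate 1, 0.34 without DMSO replicate 2 (limma adjusted p = 0.0380) and −0.057 after the loess correction.

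Beneath this sum the values of the 20 annotated TUG1 transcripts were not alike between the groups. Of the 4 transcripts that held at least 10% of the gene, ENST00000643077 (4752 bases) had 7.09 and 8.17 FPKM after etoposide, against 12.6 and 13.8 FPKM with DMSO. Its log2 fold change was −0.79 (standard error 0.15, limma adjusted p = 0.588). At an unadjusted p under 0.05, 2.95% of all transcripts tested were higher and 2.83% lower, and 0% passed after adjustment. The other 3, of 3419, 7469 and 4207 bases, had log2 fold changes of 0.15, 0.60 and 0.22, and the values of each were lowest in DMSO replicate 1. Without this library they were −0.49, 0.18 and −0.19. Exon 2 of ENST00000643077, which the other 3 lack, had a coverage on the FPKM scale of 10.3 and 11.4 after etoposide, against 6.86 and 12.5 with DMSO. Its exon 4, which lies within the transcript of 7469 bases, had 7.94 and 9.12, against 15.2 and 16.1. Whether the lower value of ENST00000643077 comes from how coverage of shared bases was divided was not tested.

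A pair of TUG1 transcripts with smaller shares, chosen after their values were seen, had opposite values in the groups. ENST00000643553 (5412 bases) was listed at 0 in both etoposide libraries, against 18.7 and 7.14 FPKM with DMSO. ENST00000643071 (6154 bases) had 9.10 and 10.6 FPKM after etoposide, against 0.0345 and 0.0786 FPKM with DMSO (limma adjusted p = 0.138). By p it ranked 26th of 71340 transcripts. All 5412 bases of the first lie within the second, which adds 742 bases. Exon 1 ends at 30971769 in the first and at 30971779 in the second, so that reads across this junction differ. Most other reads of the pair could be assigned to either. Bases of the pair also lie in other TUG1 transcripts, such as ENST00000644773, so a sum over the pair is not a closed total. Together the pair had 9.10 and 10.6 FPKM after etoposide, against 18.8 and 7.22 FPKM with DMSO, and these sums overlapped between the groups. MORC2, whose gene starts 471 bases before TUG1 on the other strand, had 13.3 and 13.3 FPKM after etoposide, against 14.1 and 14.7 FPKM with DMSO (−0.12, limma adjusted p = 0.558). SMTN, the next gene on the other side, had a log2 fold change of −0.33 (limma adjusted p = 0.386).

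DANCR (ENSG00000226950, chromosome 4, 52712325 to 52723623, plus strand), which holds epidermal progenitor cells undifferentiated, had 25.4 and 23.6 FPKM after etoposide, against 28.9 and 26.8 FPKM with DMSO. Both etoposide libraries lay below both DMSO libraries. This corresponded to a log2 fold change of −0.18 (standard error 0.085, 95% interval −0.39 to 0.027), and the limma adjusted p of 0.445 was the smallest among the members. It kept its sign without DMSO replicate 1 (−0.13) and after the loess correction (−0.16).

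The values assigned to the 2 main DANCR transcripts differed in opposite directions. ENST00000425653 (1059 bases) had 3.35 and 9.08 FPKM after etoposide, against 17.2 and 18.95 FPKM with DMSO (log2 fold change −1.69, standard error 0.54, limma adjusted p = 0.836). ENST00000411630 (987 bases) had 18.2 and 10.1 FPKM after etoposide, against 6.64 and 3.98 FPKM with DMSO (1.39, standard error 0.43, limma adjusted p = 0.831). For both the groups did not overlap, as for 16.1% of all transcripts on the lower side and 21.4% on the higher side. The first of these fold changes was −0.98 without etoposide replicate 1 and −2.39 without etoposide replicate 2, and the second was 0.96 and 1.81. The transcripts share 781 bases, and 206 of the bases of ENST00000411630 lie outside ENST00000425653. Of these bases, 203 form exon 1 of ENST00000411630, which ENST00000441504 of DANCR shares in part. Coverage of this exon on the FPKM scale was 0.662 and 0.383 after etoposide, against 0.285 and 0.269 with DMSO. Exon 3, nearly all of it shared with ENST00000425653, had 25.3 and 14.0, against 9.11 and 5.43. Exon 1 of ENST00000425653, which holds its 278 bases outside ENST00000411630, had 0.902 and 2.17, against 4.19 and 4.75. Exon 1 of each transcript thus differed in the same direction as that transcript. The part that the division of shared bases plays in the opposite values was not tested. The sum of the 2 transcripts was 21.6 and 19.2 FPKM after etoposide, against 23.8 and 22.9 FPKM with DMSO. ERVMER34-1, an endogenous retroviral envelope gene on the opposite strand that overlaps the end of DANCR, had 3.19 and 3.10 FPKM after etoposide, against 2.43 and 2.50 FPKM with DMSO (0.34, limma adjusted p = 0.377). Strand was not used in the quantification, so that reads of overlapping genes on opposite strands cannot be told apart.

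**Figure D5:**
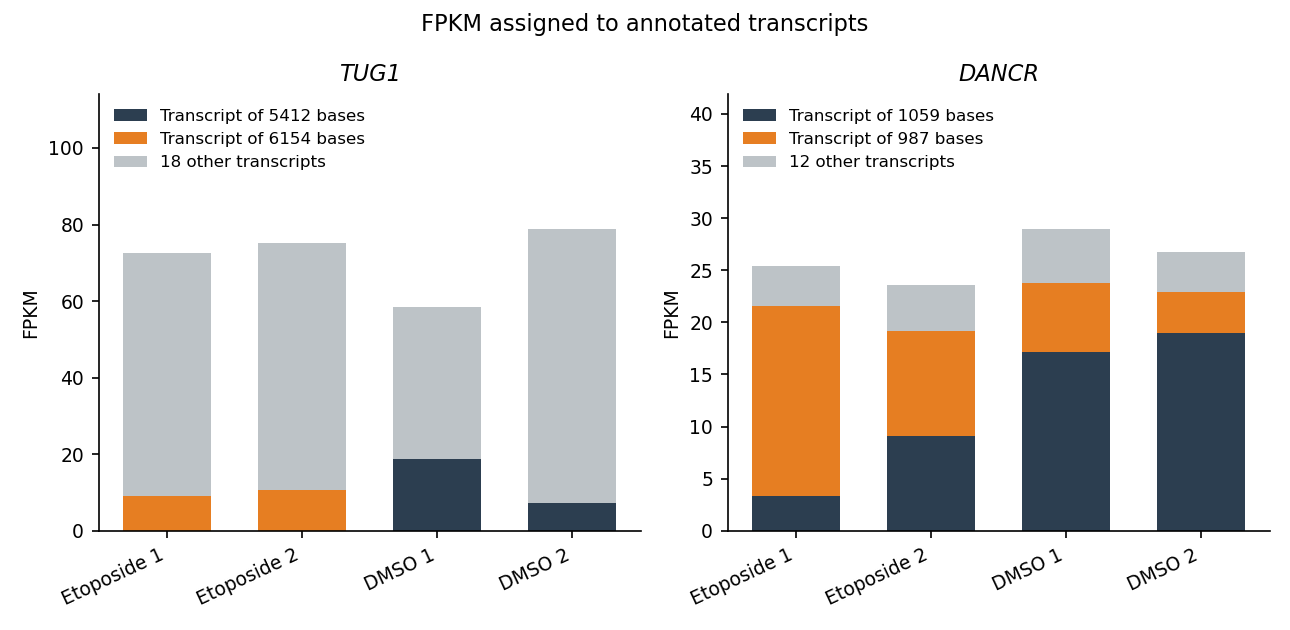
FPKM (vertical axis, from 0) assigned to annotated transcripts of TUG1 (left) and DANCR (right) in each etoposide and DMSO library, stacked by transcript. The 6154-base TUG1 transcript appears in the etoposide libraries (9.10 and 10.6 FPKM) and the 5412-base one in the DMSO libraries (18.7 and 7.14 FPKM), and in DANCR the 987-base transcript exceeds the 1059-base one after etoposide and is below it with DMSO.

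OIP5-AS1 (ENSG00000247556, chromosome 15, 41283990 to 41309737, plus strand), known as Cyrano and in mice as an RNA that leads to decay of the microRNA miR-7, had 23.3 and 25.1 FPKM after etoposide, against 21.9 and 21.1 FPKM with DMSO. The groups did not overlap, and DMSO replicate 1 did not stand apart. The log2 fold change was 0.17 (standard error 0.082, 95% interval −0.03 to 0.37, limma adjusted p = 0.451), and it was 0.20 without DMSO replicate 1 and −0.050 after the loess correction. The main transcript, ENST00000500949 (8829 bases), held 68.9% of the gene, with 16.2 and 16.8 FPKM after etoposide, against 14.4 and 15.6 FPKM with DMSO. It ends at 41306534, before the start of OIP5 at 41309273, so that the overlap with this gene on the opposite strand concerns other transcripts. OIP5 itself, whose protein takes part in loading the centromere histone, had 17.5 and 20.0 FPKM after etoposide, against 20.7 and 21.1 FPKM with DMSO (−0.16, limma adjusted p = 0.507). The fold change of OIP5 was −0.061 without etoposide replicate 1 and −0.25 without etoposide replicate 2. NUSAP1, a spindle protein downstream, had 64.1 and 68.4 FPKM after etoposide, against 88.2 and 87.1 FPKM with DMSO (−0.40, limma adjusted p = 0.269). A readthrough gene that spans OIP5-AS1, ENSG00000285920, was listed at 1.39 and 1.70 FPKM after etoposide, against 0 and 1.57 FPKM with DMSO.

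PVT1 (ENSG00000249859, chromosome 8, 127794526 to 128187101, plus strand), the neighbour of the MYC oncogene, had 4.73 and 4.93 FPKM after etoposide, against 5.73 and 4.63 FPKM with DMSO. DMSO replicate 1 was highest and DMSO replicate 2 lowest, so the groups overlapped. A log2 fold change of −0.092 was found (standard error 0.13, 95% interval −0.42 to 0.23, limma adjusted p = 0.787), and it was 0.059 without DMSO replicate 1. The level was spread over 102 of 176 annotated transcripts, of which none held 10% of the gene on average. MYC, whose end lies 51.6 kb before PVT1 on the same strand, had 8.18 and 9.45 FPKM after etoposide, against 11.8 and 11.8 FPKM with DMSO. Its log2 fold change was −0.42 (standard error 0.10, limma adjusted p = 0.313), and the groups did not overlap.

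The imprinted members had low values or were listed at 0. H19 (ENSG00000130600, chromosome 11, 1995176 to 2001470, minus strand), a fetal RNA that carries the microRNA miR-675, had 0.850 and 0.770 FPKM after etoposide, against 0.937 and 0.770 FPKM with DMSO. These values correspond to an estimated 80 to 127 read pairs per library, and the groups overlapped. The log2 fold change was −0.064 (standard error 0.18, 95% interval −0.50 to 0.37, limma adjusted p = 0.899), and it was 0.063 without DMSO replicate 1. Its neighbour IGF2, which shares an imprinting control region with H19, ranged from 0.165 to 0.289 FPKM over the 4 libraries.

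KCNQ1OT1 (ENSG00000269821, chromosome 11, 2608328 to 2699994, minus strand), which silences neighbouring genes on the paternal copy, had 0.359 and 0.297 FPKM after etoposide, against 0.251 and 0.311 FPKM with DMSO. The groups overlapped, with a log2 fold change of 0.17 (standard error 0.23, 95% interval −0.41 to 0.74, limma adjusted p = 0.778), which was 0.053 without DMSO replicate 1 and −0.13 after the loess correction. At 91667 bases the transcript is so long that these low values still stand for an estimated 1481 to 1898 read pairs per library. It is unspliced and lies within KCNQ1 on the opposite strand, so that unspliced reads of KCNQ1 cannot be told apart from it. KCNQ1, a potassium channel gene, had 0.143 and 0.146 FPKM after etoposide, against 0.0689 and 0.163 FPKM with DMSO. CDKN1C, a cell-cycle inhibitor of the same imprinted region, had 2.26 and 2.07 FPKM after etoposide, against 2.38 and 1.93 FPKM with DMSO.

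MEG3 (ENSG00000214548, chromosome 14, 100779410 to 100861031, plus strand), an imprinted RNA, was listed at 0 in all 4 libraries and could not be tested. Whether the RNA was absent or its estimate failed cannot be told from the files. Of 16 genes of the imprinted regions around H19, KCNQ1OT1 and MEG3, 13 were found by name and 8 were tested. Of these, 6 had a log2 fold change below 0, with a median of −0.15 for the list, and SLC22A18, a transporter, had 2.09 and 1.91 FPKM after etoposide, against 3.21 and 2.33 FPKM with DMSO (−0.44, limma adjusted p = 0.417). Without DMSO replicate 1 the value of SLC22A18 was −0.21 and the median of the list −0.038, and without DMSO replicate 2 SLC22A18 had −0.66 (limma adjusted p = 0.0493).

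Other long noncoding RNAs linked to DNA damage were set beside the members. Of 16 listed, 13 were found by name and 10 were tested, 6 with a log2 fold change above 0 and a median of 0.030, or 0.085 without DMSO replicate 1. PURPL, one of these, had 1.03 and 0.917 FPKM after etoposide, against 0.288 and 0.423 FPKM with DMSO. The groups lay apart, with a log2 fold change of 1.25 (standard error 0.22, limma adjusted p = 0.267), and it was 1.04 without DMSO replicate 1 and 1.21 after the loess correction. MIR34AHG, the host of the microRNA miR-34a, had 0.551 and 0.434 FPKM after etoposide, against 0.412 and 0.334 FPKM with DMSO (0.32, limma adjusted p = 0.554). Of 14 other well-studied long noncoding RNAs, 11 were tested, 5 above 0 and 6 below, with a median of −0.093. Neither list had a member past an adjusted p of 0.05.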

How the data were processed

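The 4 libraries were grouped by their treatment labels. The authors used a stranded mRNA kit and read pairs of 100 bases, with HISAT2 (GRCh38) as aligner, SAMtools for sorting and StringTie 2.1.7 for quantification of annotated transcripts (Ensembl 104), run with no option for strand. The deposited tables give, for 236853 transcripts, coverage per base, FPKM (scaled to mapped fragments) and TPM (scaled to a fixed total), and no counts. The methods text on sequencing names transfected cells, unlike the labels.

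FPKM were summed per gene. The 22185 genes, or 71340 transcripts, with a mean FPKM of at least 0.1 were compared on log2(FPKM + 0.1) with limma 3.58.1 in R 4.3.3 (trend and robust fitting, Benjamini-Hochberg adjustment, two-sided), so that a fold change understates low genes. A gene name missing in some tables was taken from another. Read pairs were estimated from coverage and transcript length over 200 bases. Sequences were read from hg38 at the coordinates of the files, with names of chromosomes matched, and gene types came from GENCODE 44. The test was tested on simulated data whose values varied independently. In that test the simulated replicates did not differ with transcript length as the DMSO libraries did, which limits what it shows for these libraries. Tables were made with Python 3.11.15 and pandas 2.3.3, and figures with matplotlib 3.10.9.

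The members and gene lists were chosen with earlier results of these data known. The text names all members, their transcripts with at least 10% of the gene, genes that overlap them at 0.1 FPKM or more or stand next to them, up to 4 genes per list with the smallest p, and the 3 genes nearest to MALAT1 and NEAT1 by distance. Alternatives were other pseudocounts, filters and scalings, TPM, base coverage, estimated fragments with voom, no trend, a loess correction for length and GC content, a replicate block and leaving out each library. Base coverage combined with the correction or with a library left out was added after seeing the data. Reads were not analysed here. A neighbouring gene and a gene list are not reported here.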

Additional observations from a re-analysis of the deposited data

How the results depend on the processing

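No member passed an adjusted p of 0.05 with all 4 libraries under the alternatives run. The number of genes that passed, 0 with limma (2643 at an unadjusted p under 0.05), was 1 for estimated fragments with voom, 6 after the loess correction and 5 to 1934 when 1 library was left out. By base coverage it was 27 and 22 without etoposide replicates 1 and 2, and 2 and 2915 without DMSO replicates 1 and 2. Without DMSO replicate 2 the lone DMSO library was replicate 1. Log2 fold changes of summed FPKM were then −0.87 for MALAT1, 0.37 for NORAD and 0.34 for TUG1. By base coverage they were −0.40, 0.37 and 0.38. For transcripts the number was 0 in all settings run. Replicate numbers did not pair the samples (correlation of same-numbered deviations 0.013), and with the replicate block 0 genes passed and the median of the members was 0.12.

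That median was −0.057 after the loess correction, −0.056 with it on base coverage, and −0.055 to 0.094 with 1 library left out. The correction turned the sign of TUG1 (−0.057), KCNQ1OT1 (−0.13), H19 (0.0074), OIP5-AS1 (−0.050), CPSF6 (−0.015) and RBM25 (−0.071), and on base coverage that of NEAT1 (−0.0063), KCNQ1OT1 (−0.15) and OIP5-AS1 (−0.064). Base coverage without DMSO replicate 1 gave 0.033 for MALAT1 and 0.054 for PVT1. The cause of these turns was not tested. With 1 library left out, log2 fold changes turned sign within the ranges −0.87 to 0.0021 for MALAT1, −0.055 to 1.08 for NEAT1, −0.094 to 0.34 for TUG1, −0.24 to 0.059 for PVT1, −0.19 to 0.063 for H19 and −0.11 to 0.53 for KCNQ1. Among transcripts the ranges were −11.43 to 0.98 for ENST00000619449 of MALAT1, −0.069 to 0.21 for the long NEAT1 transcript, −0.95 to 3.23 for ENST00000499732, −0.44 to 3.26 for ENST00000670617, −0.49 to 0.78 for ENST00000643280 and −0.19 to 0.62 for ENST00000569149 of TUG1, −0.40 to 0.047 for ENST00000441504 of DANCR, and −0.59 to 0.35 and −0.48 to 0.36 for ENST00000414790 and ENST00000412788 of H19. In TPM the median of all genes was 0.10. H19 rested on an estimated 80 to 127 read pairs per library, which limits its precision.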
